A study of Mus musculus with 6 samples.

Results

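The 7 genes described here are members of the mouse MS4A family (Ms4a4a, Ms4a4b, Ms4a4c, Ms4a6b, Ms4a6c, Ms4a6d and Ms4a7), grouped under the working name macrophage MS4A genes. They were found by gene symbol among the 32244 genes of the deposited count table, and each symbol matched 1 row. RNA was sequenced from epididymal white adipose tissue, the fat pad beside the epididymis, of Eepd1 knockout mice (EKO) and wild-type mice (WT). Each genotype had 3 libraries, all mice were C57BL/6J, and all had been on a high-fat diet for 3 months. Which part of Eepd1 was deleted, in which cells, and the age of the mice are not stated in the labels. Nor is it stated that each library is its own animal, and p-values cover only the variation among these libraries.

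MS4A proteins cross the membrane 4 times and sit at the cell surface or in endosomes, where several act beside immune receptors. The best known are CD20 of B cells (Ms4a1) and the beta chain of the mast cell IgE receptor (Ms4a2). Several of the other genes, which lie in the same cluster, are used as macrophage markers. In obese fat, macrophages gather around dying adipocytes and take up their lipid.

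Total counts ranged from 17215072 to 18330206 per library. Levels are given as CPM, which are counts scaled to equal library size after TMM normalisation, and as mean ± SD over n = 3 libraries. Values of single libraries follow the order of replicates 1, 2 and 3. The targeted gene Eepd1 read 152, 47.7 and 116 CPM across the EKO libraries against 244, 304 and 192 CPM across WT, with no overlap (log2 difference -1.23 ± 0.42, edgeR adjusted p = 0.106). Its transcript was thus lower but present in all EKO libraries. Markers of the labelled tissue were present in every library, with a summed level over 10 adipocyte genes of 4794 to 12103 CPM in EKO and 18707 to 28105 CPM in WT. WT replicate 2 stood apart from the other libraries. It had the lowest summed level of 12 general macrophage genes (1595 CPM, against 3846 to 11688 CPM in the other libraries) and the highest of 8 testis germ cell genes (2178 CPM, against 0.472 to 116 CPM).

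All 7 members are protein coding and lie in 1 cluster on chromosome 19 (GRCm38). From the centromere side they run Ms4a7 (ENSMUSG00000024672, chr19:11321039-11336146, minus strand), Ms4a4a (ENSMUSG00000101389, chr19:11375523-11392790, plus), Ms4a4c (ENSMUSG00000024675, chr19:11404770-11427246, plus) and Ms4a4b (ENSMUSG00000056290, chr19:11443553-11463549, plus). They continue with Ms4a6c (ENSMUSG00000079419, chr19:11469366-11482192, plus), Ms4a6b (ENSMUSG00000024677, chr19:11516512-11531256, plus) and Ms4a6d (ENSMUSG00000024679, chr19:11586604-11604849, minus).

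Some members are close copies of each other, which bears on how reads were assigned. Coding sequences of the longest protein-coding transcript of each gene (GENCODE M21) were aligned end to end. Ms4a4b and Ms4a4c were 91.7% identical, Ms4a6b and Ms4a6d 79.8%, Ms4a6b and Ms4a6c 74.0%, and Ms4a6c and Ms4a6d 66.8%. Ms4a7 had at most 49.9% identity with any other member, and Ms4a4a at most 59.6%. The longest identical coding runs of 3 pairs, shown because a read inside them matches both genes, were 127 bases at coding positions 321 to 447 of both Ms4a4b and Ms4a4c, 81 bases at positions 100 to 180 of both Ms4a6b and Ms4a6d, and 55 bases at positions 389 to 443 of both Ms4a6b and Ms4a6c.
Ms4a4b and Ms4a4c: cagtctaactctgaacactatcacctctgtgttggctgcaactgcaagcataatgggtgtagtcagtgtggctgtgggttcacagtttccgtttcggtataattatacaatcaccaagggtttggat
Ms4a6b and Ms4a6d: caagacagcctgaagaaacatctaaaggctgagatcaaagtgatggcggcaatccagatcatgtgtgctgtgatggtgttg
Ms4a6b and Ms4a6c: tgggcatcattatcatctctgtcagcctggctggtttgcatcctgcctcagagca

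Over the whole transcript, the share of 50-base stretches found also in a transcript of another gene was 11.3% for Ms4a6c, 8.48% for Ms4a4c, 5.89% for Ms4a6b, 4.19% for Ms4a4b and 2.92% for Ms4a6d. It was 0% for Ms4a4a and Ms4a7. Only the longest protein-coding transcript of each gene was searched, in its own direction. That transcript holds 836 of 836 annotated exon bases of Ms4a4a but 1576 of 4453 of Ms4a7. The labels do not say how the authors' counting treated reads that match several genes, so counts of the other 5 members are uncertain. The shares hold for stretches of 50 bases and not for reads of another length, so the size of this uncertainty was not measured.

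Promoter windows, from 250 bases before to 50 bases after a transcript start, came from RefSeq (GRCm38.p6), where 6 of the 7 members matched. Ms4a6d had no entry. The windows are shown because 4 members stood higher together in EKO and 3 did not. The letters GGAAGT, the core bound by ETS factors such as the macrophage regulator PU.1, were found on either strand in 5 of the 7 windows of the 6 genes, each of another gene, against 23.8% of all 32851 windows in the table. The stretches around the match were nearly the same in Ms4a6b and Ms4a6c, and closely alike in Ms4a4b and Ms4a4c. The 5 windows are thus not independent, and their share cannot be read as an enrichment. Ms4a4a had no match. The 40 bases around a match are listed for each of the 5 genes, in the direction of transcription, with the 6 matching bases in capitals (ACTTCC is the match on the opposite strand).
Ms4a7, chr19:11336139-11336178, minus strand: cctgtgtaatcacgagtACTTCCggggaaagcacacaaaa
Ms4a6c, chr19:11469335-11469374, plus strand: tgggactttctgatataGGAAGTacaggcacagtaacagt
Ms4a6b, chr19:11518457-11518496, plus strand: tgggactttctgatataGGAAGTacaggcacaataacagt
Ms4a4b, chr19:11443522-11443561, plus strand: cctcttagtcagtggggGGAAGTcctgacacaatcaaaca
Ms4a4c, chr19:11407629-11407668, plus strand: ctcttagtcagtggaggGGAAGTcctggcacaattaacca

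The match began 15 bases before the start in Ms4a7 and Ms4a4c, 16 in Ms4a6c, 19 in Ms4a4b and 85 in Ms4a6b. Ms4a6b and Ms4a6c each held a further match on the opposite strand. Matches were found both in members that stood higher in EKO and in Ms4a4b and Ms4a4c, whose genotypes overlapped. The longer PU.1 form GAGGAAGT, which contains GGAAGT and is held by 3.20% of all windows, was in no member window. Neither were a doubled interferon response element (3.44% of all windows), the E-box TCACGTGA bound by MiT factors (0.974%) and its extended CLEAR form (0.326%), which contains it. TGANTCA, a loose form of the AP-1 site with any base in the middle, was in 7.81% of all windows. It was in Ms4a4b as TGAATCA and in the second window of Ms4a7 as TGATTCA. A loose NF-kB form (20.7%) was in Ms4a4a and Ms4a6c, and TATAAA (13.6%) in Ms4a4b. Both strands were searched, and a match is not a bound site. The whole windows of Ms4a7, which stood higher in EKO, and of Ms4a4a, which overlapped between genotypes, are shown for comparison, with GGAAGT or its complement in capitals.
Ms4a7, chr19:11336097-11336396, minus strand: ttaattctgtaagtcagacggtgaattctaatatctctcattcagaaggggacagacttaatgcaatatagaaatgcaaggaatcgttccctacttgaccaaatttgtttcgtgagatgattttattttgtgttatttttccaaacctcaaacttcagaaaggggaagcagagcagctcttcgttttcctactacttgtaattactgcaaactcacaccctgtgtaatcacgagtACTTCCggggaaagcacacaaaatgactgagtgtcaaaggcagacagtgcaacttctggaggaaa
Ms4a4a, chr19:11375238-11375537, plus strand: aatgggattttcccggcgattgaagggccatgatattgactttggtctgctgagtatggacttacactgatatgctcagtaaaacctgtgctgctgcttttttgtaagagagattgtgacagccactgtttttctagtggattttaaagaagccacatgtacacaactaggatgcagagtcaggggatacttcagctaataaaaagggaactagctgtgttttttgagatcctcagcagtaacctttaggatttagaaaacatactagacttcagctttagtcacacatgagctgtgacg

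The comparison of EKO with WT asks which genes of fat differ in level when Eepd1 is lost. All 7 members had higher means in EKO, and their summed level was 368 ± 129 CPM in EKO and 125 ± 34.1 CPM in WT, a 2.95-fold difference. Ms4a6d, Ms4a7, Ms4a6c and Ms4a6b, the members with the largest differences, had every EKO library above every WT library. Ms4a4a, Ms4a4c and Ms4a4b overlapped between genotypes. The edgeR quasi-likelihood test, adjusted by Benjamini-Hochberg over 16121 genes, called 0 members at an adjusted p of 0.05, and it called 0.00% of all genes, with a lowest adjusted p of 0.0628.

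All 7 members had enough counts to be tested. At an unadjusted edgeR p under 0.05, 4 of the 7 were higher in EKO, where 18.9% of all tested genes were. Every EKO library stood above every WT library in 4 of 7, against 25.1% of tested genes. The DESeq2 Wald test called 4 of 7, all higher, against 1891 of the 14593 genes given an adjusted p called as higher and 25.4% called in either direction, and the authors' deposited table marks 3 of 7 as significantly up, against 5.09%. DESeq2 called Ms4a6b, Ms4a6c, Ms4a6d and Ms4a7, of which the authors' deposited table leaves Ms4a6b unmarked. In the authors' deposited table its adjusted p is 0.00148, but its fold change is 1.72, and every gene that table marks has a log2 fold change of at least 1.00 in size. The mean was higher in 7 of 7 members and in 51.3% of tested genes, and the median log2 difference was 0.82 over the members and 0.02 over all tested genes. In bulk tissue, more cells of a type and more RNA per cell cannot be told apart.

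Ms4a6d, a macrophage protein that in mice partners the complement receptor Vsig4 to restrain the Nlrp3 inflammasome, differed most. Its levels were 85.9, 300.1 and 109 CPM across the EKO libraries against 29.2, 18.6 and 42.6 CPM across WT. Every EKO library lay above every WT library, and EKO replicate 2 lay far above the other EKO libraries. The means were 165 ± 118 and 30.1 ± 11.99 CPM, a 5.47-fold difference. The log2 difference was 2.45 ± 0.56 (SE; edgeR quasi-likelihood adjusted p = 0.0639, DESeq2 adjusted p = 0.000180). Without EKO replicate 2 the log2 difference was 1.66 (edgeR adjusted p = 0.184), and without WT replicate 2 it was 2.14 (edgeR adjusted p = 0.0910).

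Ms4a7, used in mice as a marker of tissue macrophages, stood at 100.2, 116 and 85.3 CPM in the EKO libraries and at 46.6, 15.6 and 46.6 CPM in the WT libraries. The genotypes did not overlap, and WT replicate 2 was the lowest library. The means were 100.4 ± 15.2 and 36.3 ± 17.9 CPM, a 2.77-fold difference. The log2 difference was 1.47 ± 0.41 (edgeR adjusted p = 0.0744, DESeq2 adjusted p = 0.00749). Without WT replicate 2 it was 1.05, the spread within WT was smaller, and edgeR called Ms4a7 (adjusted p = 0.0425), the only member called in that fit, in which 443 genes were called.

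Ms4a6c stood at 29.0, 29.9 and 22.5 CPM in the EKO libraries and at 11.6, 8.55 and 14.99 CPM in the WT libraries. The lowest EKO library was above the highest WT library. The means were 27.1 ± 4.05 and 11.7 ± 3.22 CPM, a 2.32-fold difference with a log2 difference of 1.21 ± 0.24 (edgeR adjusted p = 0.0628, DESeq2 adjusted p = 0.000851). Without WT replicate 2 the log2 difference was 0.97 (edgeR adjusted p = 0.0536). BE692007, a gene on the opposite strand that overlaps Ms4a6c (chr19:11470166-11484578), averaged 9.90 ± 2.18 CPM in EKO and 5.62 ± 1.77 CPM in WT, and without the strand setting of the authors' counting its reads cannot be told apart from those of Ms4a6c.

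Ms4a6b, studied in mouse T cells as well as macrophages, stood at 59.6, 49.6 and 43.0 CPM in the EKO libraries and at 27.7, 27.3 and 31.5 CPM in the WT libraries. The groups were apart, and the WT libraries lay close together. The means were 50.7 ± 8.37 and 28.8 ± 2.31 CPM, a 1.76-fold difference with a log2 difference of 0.82 ± 0.15 (edgeR adjusted p = 0.0628, DESeq2 adjusted p = 0.00101). Its WT level in replicate 2 was close to that in replicate 1. The summed level of general macrophage genes was 1595 CPM in WT replicate 2 and 3846 CPM in WT replicate 1. Mertk was the only gene of that list that was level there too, at 60.8 and 59.8 CPM. Aif1 was higher in WT replicate 2 (43.3 CPM, against 5.88 CPM in WT replicate 1), and all others on the list were lower. Without WT replicate 2 the log2 difference was 0.72 (edgeR adjusted p = 0.0668).

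**Figure D1:**
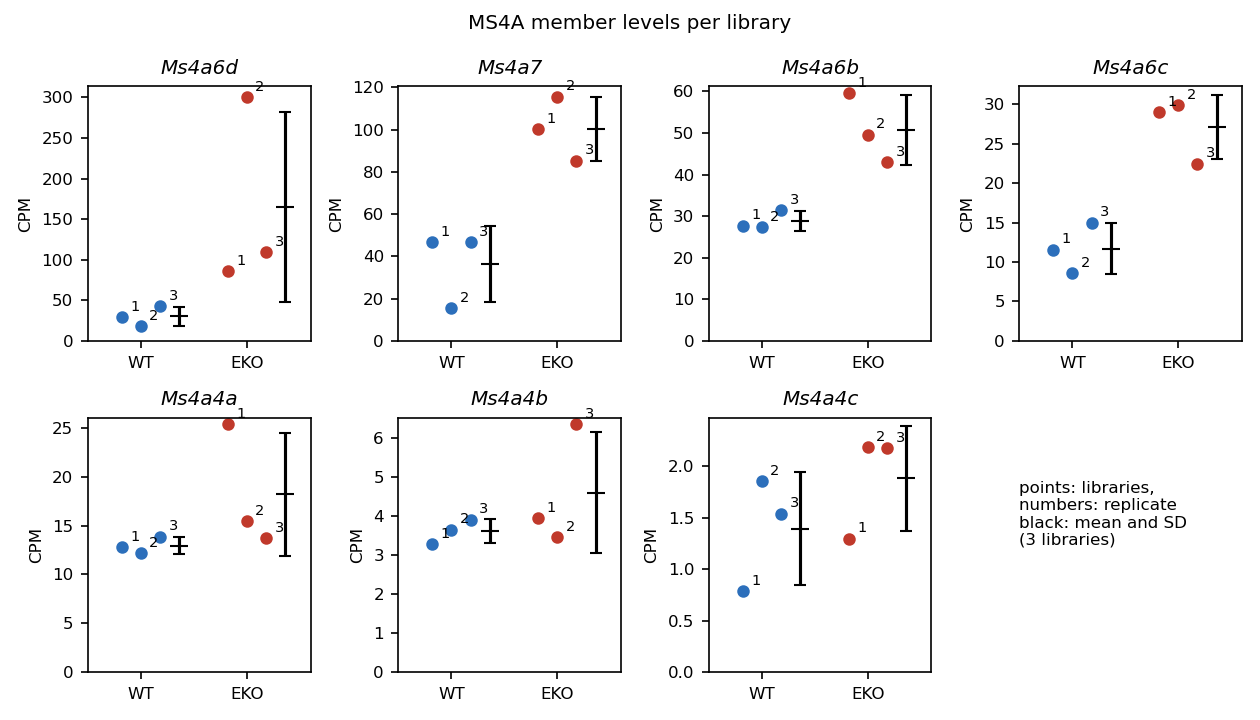
Levels of the 7 members in CPM (vertical axes from 0, a scale of its own for each gene) in the 3 WT and 3 EKO libraries, with replicate numbers beside the points and the mean ± SD in black. Ms4a6d, Ms4a7, Ms4a6b and Ms4a6c have every EKO library above every WT library, while Ms4a4a, Ms4a4b and Ms4a4c overlap.

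Ms4a4a, whose human counterpart marks alternatively activated macrophages and which in mice cooperates with the fungal receptor Clec7a (dectin-1), stood at 25.4, 15.5 and 13.7 CPM in the EKO libraries. In the WT libraries it stood at 12.8, 12.2 and 13.9 CPM. EKO replicate 1 alone was clearly above WT, and EKO replicate 3 lay within the WT range. The means were 18.2 ± 6.28 and 12.9 ± 0.844 CPM, and the log2 difference of 0.49 ± 0.26 was not called (edgeR adjusted p = 0.235, DESeq2 adjusted p = 0.273). Without EKO replicate 1 the log2 difference was 0.19 (edgeR adjusted p = 0.533).

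Ms4a4b, known in mouse T cells, where it associates with the receptor GITR (Tnfrsf18), stood at 3.95, 3.46 and 6.35 CPM in the EKO libraries and at 3.28, 3.65 and 3.90 CPM in the WT libraries. EKO replicate 3 was high, and EKO replicate 2 was below 2 of the WT libraries. The means of 4.59 ± 1.54 and 3.61 ± 0.313 CPM gave a log2 difference of 0.35 ± 0.30 (edgeR adjusted p = 0.443), which was 0.04 without EKO replicate 3. That library also had the highest summed level of 12 T cell genes, 35.97 CPM against 15.1 to 20.4 CPM in the other libraries. The part of T cells in the Ms4a4b value was not tested.

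Ms4a4c was the lowest member in CPM, at 1.30, 2.18 and 2.17 across EKO against 0.791, 1.85 and 1.54 across WT, which overlapped. It had 14 to 38 counts per library. The log2 difference was 0.43 ± 0.41 (edgeR adjusted p = 0.491, DESeq2 adjusted p = 0.615) and was not called. It was 0.13 without WT replicate 1 and 0.66 without EKO replicate 1.

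Levels can be compared between genes only per length. Divided by the length of the longest protein-coding transcript, mean levels over the 6 libraries were 68.8 CPM per kb for Ms4a6d, 43.4 for Ms4a7, 18.6 for Ms4a4a, 14.8 for Ms4a6b, 10.5 for Ms4a6c, 0.951 for Ms4a4c and 0.863 for Ms4a4b. Ms4a6b was above Ms4a6c, and Ms4a6c above Ms4a4c, in 6 of 6 libraries. Ms4a7 was above Ms4a4a, and Ms4a4a above Ms4a6b, in 5 of 6 libraries. By genotype, Ms4a6d and Ms4a7 averaged 116 ± 82.9 and 63.7 ± 9.62 CPM per kb in EKO and 21.3 ± 8.46 and 23.02 ± 11.3 in WT. The order of the means turned in WT, but Ms4a6d was above Ms4a7 in 2 of 3 libraries of each genotype. The order of Ms4a6d and Ms4a7 was held in 4 of 6 libraries and that of Ms4a4c and Ms4a4b in 3 of 6, so these neighbours do not differ beyond the spread over libraries. With the union of annotated exons as the length, chosen after the data were seen, Ms4a7 came to 15.3 CPM per kb, below Ms4a4a at 18.6, and Ms4a6b at 8.87 came below Ms4a6c at 9.47.

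By this measure the make-up of the family differed between genotypes mainly through Ms4a6d. It made up 31.2%, 62.2% and 43.1% of the summed members' CPM per kb across EKO, against 24.8%, 24.2% and 30.7% across WT. The lowest EKO share was just above the highest WT share, and EKO replicate 2 set the highest. Ms4a4a made up 15.6%, 5.44% and 9.21% in EKO and 18.4%, 26.9% and 16.96% in WT and was below every WT library in each EKO library. The share of Ms4a7 was alike in its means, 28.2% ± 5.90 in EKO and 28.0% ± 8.85 in WT, with overlapping libraries. These shares add up to a whole within a library, so a higher level of one member lowers the shares of the others.

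**Figure D2:**
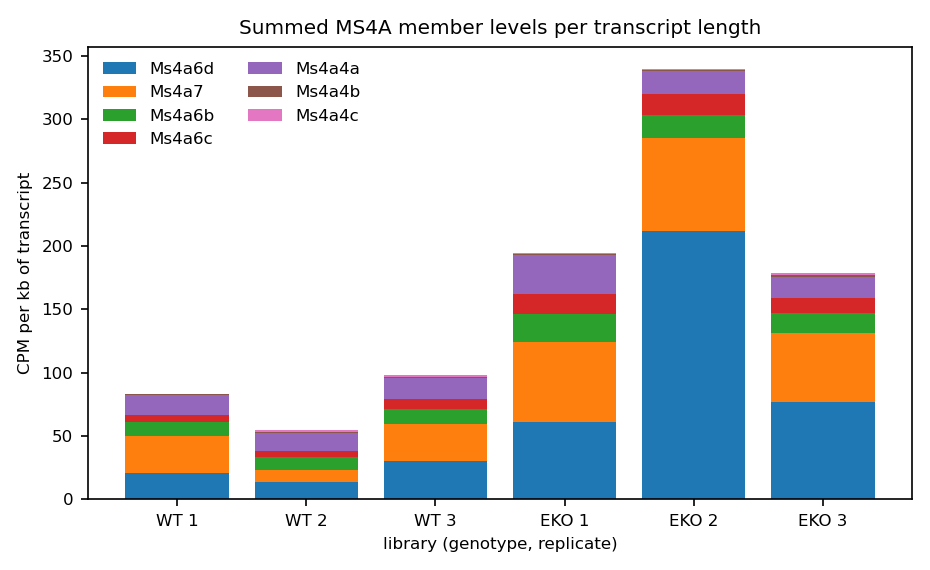
Stacked levels of the 7 members in CPM per kb of transcript (vertical axis from 0) in each WT and EKO library. The summed height is 54.3 to 97.7 in the WT libraries and 178 to 340.2 in the EKO libraries, and Ms4a6d takes the largest part of the added height in EKO replicate 2.

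Ratios between members within a library do not depend on the scaling of libraries, apart from the 0.5 CPM added to each level. The ratio of Ms4a6b to Ms4a6d, from CPM + 0.5, was 0.167 to 0.696 in EKO and 0.742 to 1.45 in WT. Ms4a6b to Ms4a6c was 1.65 to 2.04 in EKO and 2.06 to 3.07 in WT, with a narrow gap between the genotypes. Ms4a6d to Ms4a7 overlapped, at 0.857 to 2.59 in EKO and 0.631 to 1.19 in WT. The Ms4a6 pairs share coding stretches, as shown above, so a part of their reads may be assigned to either gene.

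General macrophage genes differed in the same direction as the members. Of 12 tested genes, among them Lyz2 (lysozyme), Mpeg1 (perforin-2) and Cd68 (a lysosomal glycoprotein), 11 had every EKO library above every WT library, against 25.1% of all tested genes. The exception, Aif1, was 43.3 CPM in WT replicate 2 and 5.88 to 10.2 CPM in the other libraries (log2 difference -1.20). The median log2 difference of the 12 was 1.45. Their summed level was 7371 to 11688 CPM in EKO and 1595 to 4046 CPM in WT. Of 12 lipid-associated macrophage genes, led by Gpnmb (a lysosomal glycoprotein of lipid-laden macrophages), Mmp12 (macrophage elastase) and Lgals3 (galectin-3), 12 were above in every library, against the same 25.1%. Their median was 1.96, with summed levels of 18515 to 30974 CPM in EKO and 1559 to 6276 CPM in WT. Of 12 resident macrophage genes, led by Stab1 and Mrc1 (scavenger receptors) and Gas6 (a ligand of Mertk), 5 had a higher and 7 a lower mean. Every EKO library was above every WT library in 3 (background 25.1%) and below in 3 (background 17.7%). The median of the 12 was -0.32, and the summed level was 1475 to 2555 CPM in EKO and 1175 to 1415 CPM in WT. All 3 named genes had higher means, and Stab1 (665 against 322 CPM) and Mrc1 (614 against 287 CPM) carried much of these sums. Monocyte genes, led by Hp, Ace and Vcan, had 6 of 10 higher means and a median of 0.34. Their sums were 1427 to 2006 CPM in EKO and 2133 to 2592 CPM in WT. Hp alone averaged 1489 ± 397 CPM in EKO and 2016 ± 232 CPM in WT, so these sums mostly show Hp.

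To set the members beside this, each was expressed in each library as log2(CPM + 0.5) minus the mean over the 12 general macrophage genes, Aif1 included. On this scale Ms4a6d stood at -1.46, -0.06 and -1.07 in the EKO libraries and at -2.01, -1.86 and -1.70 in the WT libraries, higher by 1.00 in EKO on average. Without EKO replicate 2 the Ms4a6d value was 0.60. Ms4a7 differed by 0.31, Ms4a6c by -0.09, Ms4a6b by -0.50, Ms4a4a by -0.86 and Ms4a4c by -0.94, all with overlapping libraries. Ms4a4b differed by -1.02, with every EKO library below every WT library. The gap was narrow, from -5.07 in EKO replicate 3 to -4.99 in WT replicate 3. Without WT replicate 2 the values were 0.097 for Ms4a7, -0.23 for Ms4a6b, -0.46 for Ms4a4c and -0.71 for Ms4a4b. Without WT replicate 1 the Ms4a7 value was 0.48. With 3 libraries against 3 the exact two-sided permutation test cannot go below p = 0.1, which Ms4a6d and Ms4a4b reached (adjusted p = 0.35 over the 7 members), and no member could be called.

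The reference genes decide part of these values. Against the lipid-associated macrophage list, the difference of Ms4a6d was -0.025 and that of Ms4a7 -0.71, and with that list all 7 members were lower relative to it in EKO. Against the resident macrophage list, all 7 members were higher in EKO, from 0.40 for Ms4a4b to 2.42 for Ms4a6d. Against Adgre1 (F4/80) alone, Ms4a7 differed by -0.061 and Ms4a6c by -0.46. Ms4a6c also changed sign without WT replicate 2, to 0.011. The part of macrophage number in each member's difference was not tested.

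**Figure D3:**
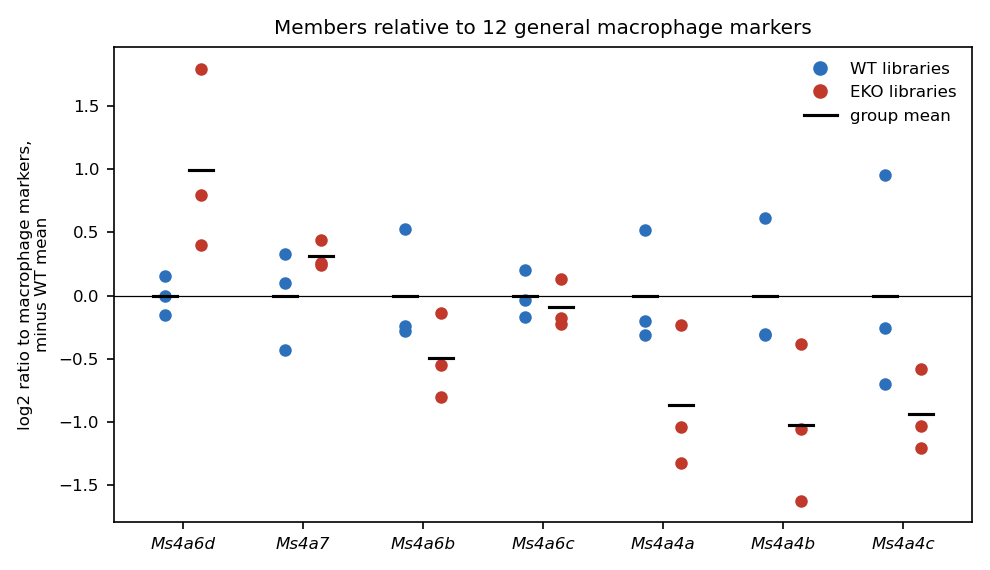
Each member's log2 ratio to the mean of 12 general macrophage genes in the same library, with the mean of the WT libraries set to 0 (vertical axis in log2 units, points for libraries, lines for group means). Ms4a6d is higher and Ms4a4b lower in every EKO library than in any WT library, and the other 5 members overlap between the genotypes.

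By pattern over the 6 libraries, the genes most like each member were sought among 14949 tested genes of at least 1 CPM. Genes with an Ms4a symbol were left out of the search. The measure was the mean absolute difference of log2(CPM + 0.5), each gene centred on its own mean. Ms4a7 was nearest to Tbxas1 (thromboxane synthase; 0.03), Cybb (the phagocyte NADPH oxidase subunit; 0.06) and Adgre1 (F4/80; 0.06), where the median over all those genes was 0.80. Ms4a6d was nearest to Mcoln2 (an endolysosomal cation channel), Cxcl14 (a chemokine) and D330045A20Rik, at 0.13 to 0.15 with a median of 1.13. The nearest to Ms4a6b were Arhgap19, Mertk (a receptor for dying cells) and Rac3 (a small GTPase), at 0.06 to 0.08. For Ms4a6c they were Sdf2l1 (an endoplasmic reticulum protein), Cacna1b (a calcium channel subunit) and Treml1, at 0.05 to 0.07. The lists for Ms4a4a (4930404I05Rik, Zc4h2 and Pla2g2e), Ms4a4b (Rpl35a-ps3, Gm5879 and Isg15) and Ms4a4c (Tmub1, Pin4 and Rabl3) lay at 0.07 to 0.10. Adgre1 and Mertk were the only genes named here that are also on a macrophage list. All patterns share the same 6 libraries, so likeness includes the genotype difference itself.

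**Figure D4:**
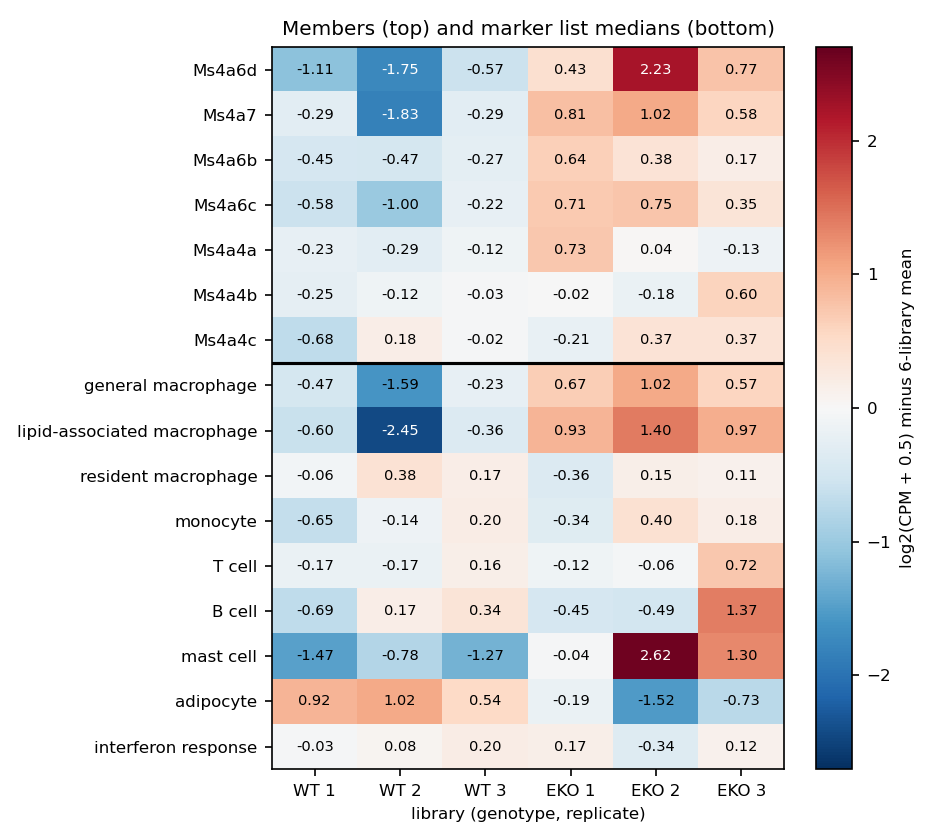
Log2(CPM + 0.5) minus the mean of the 6 libraries for each member (top) and as the median of each marker list (bottom), by library, with red above and blue below the mean. Ms4a7 follows the general macrophage row, both lowest in WT 2 (-1.83 and -1.59) and highest in EKO 2 (1.02 and 1.02), while Ms4a4b and the T cell row are highest in EKO 3 (0.60 and 0.72).

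Of 16 further genes of the family, related Tmem176 genes included, 13 were found and 7 could be tested. Their median log2 difference was 0.27, and edgeR called 0 (2 of 7 had an unadjusted p under 0.05, against 32.7% of all tested genes in either direction, and DESeq2 called 1 of 7, against 25.4%). Ms4a2, the mast cell gene, stood at 1.71, 6.93 and 5.09 CPM in EKO and at 0.339, 0.762 and 0.308 CPM in WT. Its log2 difference was 3.26 ± 0.65 (edgeR adjusted p = 0.0628, DESeq2 adjusted p = 0.000157). Mast cell genes summed to 154 to 826 CPM in EKO and 67.4 to 88.55 CPM in WT, with EKO replicate 2 the highest for both. Ms4a1, which encodes CD20, was high in EKO replicate 3 (19.6 CPM, against 2.24 and 3.46 CPM in the other EKO libraries) and was 1.07, 5.99 and 10.2 CPM in WT. B cell genes summed to 90.7 CPM in EKO replicate 3 and 16.3 to 45.2 CPM in the other libraries, and the Ms4a1 log2 difference of 0.55 became -1.01 without that library.

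Ms4a4d, the close neighbour of Ms4a6b, was 27.8 ± 2.10 CPM in EKO and 22.3 ± 0.895 CPM in WT, with every EKO library above every WT library and a log2 difference of 0.32 ± 0.12 (edgeR adjusted p = 0.124). Ms4a8a was level, at 3.33 ± 0.764 and 3.50 ± 0.933 CPM. Tmem176a and Tmem176b, on chromosome 6, overlapped between genotypes at 90.0 ± 13.2 against 74.6 ± 25.2 CPM and 93.7 ± 12.3 against 89.2 ± 17.6 CPM.

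Further members of the cluster were found mainly in the library with testis transcripts. For Ms4a5, 0, 1 and 20 counts were found across EKO against 6, 333 and 0 across WT, and for Ms4a13 0, 0 and 15 against 0, 326 and 0. WT replicate 2, with the highest counts, and EKO replicate 3, the next, were also the libraries with the highest summed testis levels (2178 and 116 CPM). Ms4a14 was 74.4 CPM in WT replicate 2, 13.5 and 15.04 CPM in WT replicates 1 and 3 and 21.2 to 29.3 CPM in the EKO libraries. Its log2 difference was -0.47 (edgeR adjusted p = 0.648), and 0.74 ± 0.17 without WT replicate 2 (edgeR adjusted p = 0.0690). Ms4a10, Ms4a12, Ms4a15 and Ms4a18 had at most 4 counts in any library.

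Along chromosome 19 the MS4A genes analysed span 661427 bases (chr19:10962293-11623719), in which 33 genes were listed and 16 tested. Tested genes within the cluster went both ways. The lincRNA AW112010 was 12.9 ± 4.81 CPM in EKO and 21.9 ± 1.09 CPM in WT, with every EKO library below every WT library (log2 -0.76 ± 0.28, edgeR adjusted p = 0.124, DESeq2 adjusted p = 0.0428). Ms4a14 and Ms4a8a also had lower means in EKO, and the other 13 had log2 differences above 0. Genes on either side went both ways too. On the side of Ms4a8a, Tmem109, Prpf19 and Ccdc86 differed by -0.20, 0.07 and 0.49. On the side of Ms4a2, Mrpl16 (a mitochondrial ribosomal protein) and the olfactory receptor Olfr1420 differed by -0.12 and -0.02. Stx3, a syntaxin of vesicle fusion, was 46.1 ± 4.88 CPM in EKO and 20.3 ± 5.55 CPM in WT, with every EKO library above every WT library (log2 1.18 ± 0.22, edgeR adjusted p = 0.0628).

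**Figure D5:**
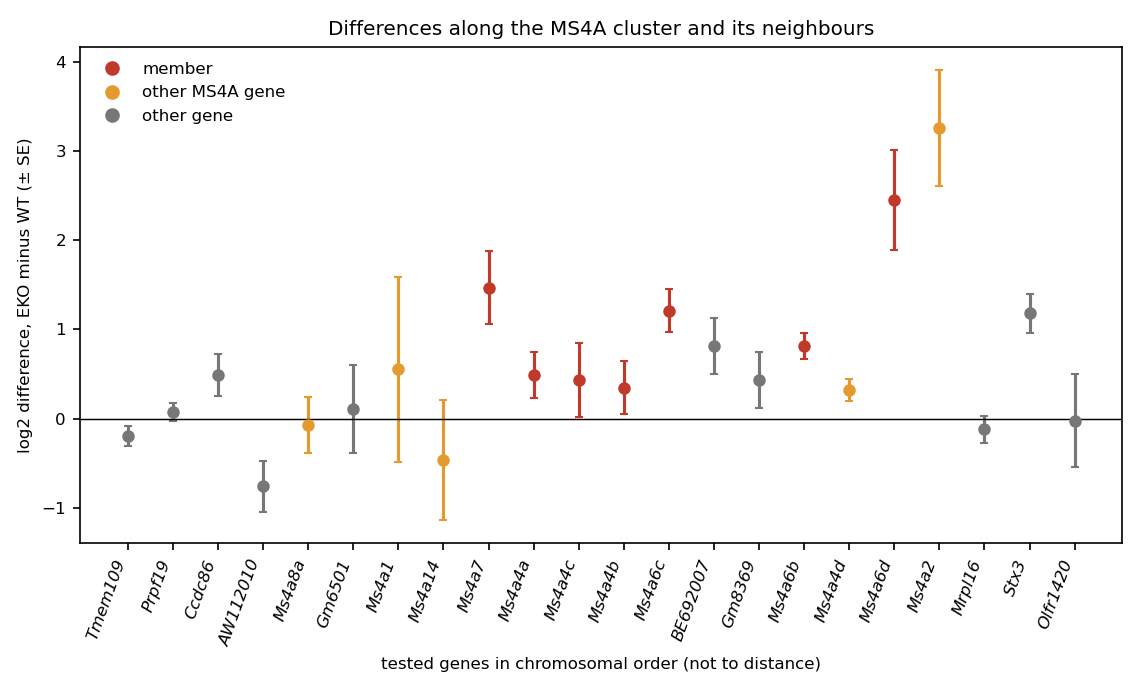
Log2 difference of EKO minus WT with its SE for the tested genes of the MS4A cluster and 3 tested genes on each side, in chromosomal order and not to distance. The members (red) lie from 0.35 for Ms4a4b to 2.45 for Ms4a6d, and Ms4a2 has the highest value, 3.26.

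Genes whose proteins have been reported to work with MS4A proteins were mostly higher in EKO. Of 9 tested, 7 had every EKO library above every WT library (background 25.1%) and 1 below (background 17.7%), and edgeR called 0 (8 had an unadjusted p under 0.05, against 32.7% of tested genes, and DESeq2 called 8, against 25.4%, both in either direction). Trem2 is also on the lipid-associated macrophage list and Kit on the mast cell list. Trem2, the lipid receptor whose soluble form is linked to the MS4A locus in humans, and its adaptor Tyrobp differed by 1.90 and 1.58 (log2). Clec7a, the reported partner of Ms4a4a, was 155 ± 38.2 CPM in EKO and 49.7 ± 28.7 CPM in WT. The kinase Syk, which signals below Clec7a, differed by 1.32, and the receptor chain Fcer1g differed by 1.51. Of the reported partners of Ms4a6d, Vsig4 was 7.73, 6.48 and 16.98 CPM in EKO and 2.37, 2.94 and 7.96 CPM in WT, which overlapped. Nlrp3 was 4.71 ± 2.55 and 1.40 ± 0.789 CPM, with every EKO library above every WT library. Kit, a receptor of mast cells linked to MS4A4A in human mast cells, was 35.3 ± 7.26 and 20.2 ± 3.77 CPM. Tnfrsf18 (GITR), the reported partner of Ms4a4b, went the other way, at 1.48 ± 0.0616 CPM in EKO and 3.10 ± 0.717 CPM in WT, with every EKO library below every WT library.

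Lists of other cells were read for the same libraries. Over all tested genes, 51.3% had a higher mean in EKO. T cell genes, led by Cd2, Cd4 and Lck, had 9 of 11 tested means higher in EKO with 0 at an unadjusted p under 0.05, and NK cell genes, led by Klrd1, Gzma and Ncr1, had 7 of 8 lower with sums of 5.19 to 7.44 CPM in EKO and 8.22 to 8.93 CPM in WT. B cell genes, led by Cd22, Cd79a and Cd79b, had 8 of 9 higher. EKO replicate 3 had the highest sum of both the T cell genes (35.97 CPM) and the B cell genes (90.7 CPM). Dendritic cell genes, led by Zbtb46, Clec9a and Cd209a, had 6 of 8 lower, with sums of 36.03 to 40.3 CPM in EKO and 49.2 to 57.6 CPM in WT. Neutrophil genes, led by Csf3r, S100a8 and S100a9, had 2 of 4 tested higher, with sums of 11.9 to 18.5 CPM in EKO and 9.15 to 16.8 CPM in WT. Mast cell genes, led by Tpsb2, Mcpt4 and Cpa3, had 8 of 9 higher. Interferon response genes, led by Oasl2, Rsad2 and Irf7, had 4 of 10 higher at a median of -0.15, with sums of 96.8 to 152 CPM in EKO and 121 to 141 CPM in WT. Adipocyte genes, led by Fabp4, Cidec and Lep, had 10 of 10 lower. Hepatocyte genes, led by Alb, Ahsg and Apoa1, had sums of 9.75 to 188 CPM in EKO and 8.82 to 68.7 CPM in WT. Testis germ cell genes, led by Prm2, Tnp2 and Prm1, had 7 of 7 lower by their means, which WT replicate 2 sets. The part of any of these cells in the members' differences was not tested.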

How the data were processed

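The authors deposited 1 table of raw read counts per gene for 6 libraries, aligned to GRCm38 per the submitters' processing notes; the labels name no aligner, counter or strand setting for it. The same deposited table also holds results computed by the authors and used only where named: mean signal, the ratio between genotypes and its log2, and p-values before and after adjustment. Groups follow the genotype labels.

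Counts were tested with edgeR 4.0.16 (R 4.3.3): filterByExpr, TMM, the quasi-likelihood F test with genotype alone, and Benjamini-Hochberg over 16121 genes. SE is the log2 difference divided by the square root of F. DESeq2 1.42.0 and limma 3.58.1 were alternatives, and the fits were tested on simulated data. Transcript lengths, coding sequences and 50-base stretches came from GENCODE M21 (GRCm38), in which 99.9% of the matched genes overlapped their deposited coordinates. Coding sequences were aligned with Biopython 1.88. The symbol Itgam had a pair of rows, and the one with more counts was used.

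The members, gene lists and tests were chosen with earlier results of these data known. Named are all members, the rest of the family, reported partners, 3 tested genes on each side of the cluster, the 3 genes most like each member, the 3 genes with the highest mean of each list, and Eepd1. BE692007, AW112010 and Aif1 were named after their values were seen. Alternatives were other scalings, filters, tools and reference genes, a block for the replicate number, and each library left out in turn. A count of 0 allows up to 0.154 to 0.192 CPM (3 counts), for counting error only.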

Additional observations from a re-analysis of the deposited data

How the results depend on the processing

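The log2 differences of all 7 members stayed above 0 under all 15 alternatives to the test, and the median over the members ranged from 0.70 to 0.93 (0.70 to 0.93 also over the 6 fits without 1 library). The count of members called was 0 by edgeR, 4 with the DESeq2 Wald test and 4 with limma-voom with quality weights, and 0 to 1 over the fits without 1 library, the 1 being without WT replicate 2. Over all genes the counts were 0, 3713 (DESeq2), 4101 (limma-voom with quality weights) and 0 to 443 without 1 library. The cause of these differences was not tested. Adjusted p ranged from 0.000180 to 0.229 for Ms4a6d, from 0.00749 to 0.261 for Ms4a7, from 0.000851 to 0.229 for Ms4a6c and from 0.00101 to 0.229 for Ms4a6b. With the replicate number as a block, 0 genes and 0 members were called and the median was 0.81. Same-numbered libraries did not deviate together (correlations of 0.24, -0.30 and -0.36), so the numbers were not taken as pairs.

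Relative to general macrophage genes, the median over the members was -0.50 (-0.67 to -0.23 without 1 library), -1.52 against the lipid-associated list and 0.93 against the resident list. Single members that changed sign were, against the resident list, Ms4a4a (0.56), Ms4a4b (0.40), Ms4a4c (0.48), Ms4a6b (0.93) and Ms4a6c (1.33), against the lipid-associated list Ms4a6d (-0.025) and Ms4a7 (-0.71), against Adgre1 Ms4a7 (-0.061), and without WT replicate 2 Ms4a6c (0.011, the highest of -0.20 to 0.011 without 1 library). The low counts of Ms4a4c limit what can be seen for it.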
